A study of Mus musculus with 6 samples.

Results

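Target genes of the transcription factor p53, 10 in number, were followed in cultured mouse pancreatic buds: Cdkn1a, Mdm2, Ccng1, Plk2, Bax, Bbc3, Trp53inp1, Sesn2, Btg2 and Eda2r. They were chosen by symbol, all 10 are in the deposited table of 54532 genes, and all 10 are among the 18226 genes with enough reads to be tested. The buds were dissected at stage E12.5 and cultured for 2 days in medium M199 with 10% fetal bovine serum and 0.1% DMSO, the solvent. In the TBZ group (3 libraries) 0.1 µM tetrabenazine was present for the whole culture, and the Control group (3 libraries) had DMSO without the drug. Tetrabenazine blocks VMAT2, the transporter that loads monoamines into secretory vesicles, and the study asked what this pathway does for gene expression in pancreatic development. The labels give no strain, and they do not say how many buds went into a library or whether libraries came from separate litters, so p-values measure only the spread between these samples.

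The p53 protein is made and degraded continuously, and DNA damage, replication stress or metabolic stress stops its degradation. It then binds DNA as a tetramer at paired short sites and switches on genes that halt the cell cycle, repair damage, adjust metabolism or start apoptosis. One of its targets, Mdm2, encodes the ubiquitin ligase that sends p53 for degradation, which closes a feedback loop. In the pancreas p53 is best known from ductal adenocarcinoma, where its gene is often mutated. The level of its target transcripts is a common readout of its activity, though most targets also answer to other factors.

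The TBZ and Control buds had nearly the same levels of p53 target transcripts. No member passed the edgeR test at an adjusted p under 0.05, where 0.187% of all tested genes passed. At an unadjusted p under 0.05 there were 4 members, Plk2 higher and Bax, Trp53inp1 and Ccng1 lower in TBZ, where 9.61% of all tested genes passed (5.08% higher and 4.54% lower). The largest difference was that of Plk2, which was 14.4% higher in TBZ (95% interval 7.40% to 21.8%), and the intervals of all 10 genes lay between -16.7% and 21.8%. DESeq2 called 1 of the 10 (1.43% of all genes with its adjusted p), Plk2, and limma on FPKM called 0. The authors' deposited table has 1 of the 10 past the same threshold (0.767% of its genes with an adjusted p), again Plk2. Its log2 fold change for Plk2, 0.1928, was that of DESeq2 here (0.1928), from the same libraries, so these calls are not separate evidence. In bulk RNA a change in the share of cells that express a gene and a change in RNA per cell cannot be told apart.

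The libraries held 35.8 to 41.0 megareads (counted reads) in TBZ and 41.0 to 50.6 megareads in Control, and Pearson correlations of log2 CPM (counts scaled to library size) between libraries ran from 0.9927 to 0.9969. Every member had at least 1048 reads in every library. Together the 10 genes took 0.129%, 0.122% and 0.121% of the reads in TBZ replicates 1 to 3, against 0.128%, 0.128% and 0.130% in Control replicates 1 to 3. Marker genes of the expected tissue were present, with 12 of 12 acinar and 12 of 12 endocrine genes tested. The acinar markers, genes of the enzyme-secreting cells, summed to 6049 to 7495 FPKM in TBZ and 4021 to 4914 FPKM in Control, with 12 of 12 higher and 9 past the edgeR threshold. Of 12 tested stomach and oesophagus markers 10 were lower in TBZ, and Control replicate 3 stood apart: the list's median deviation from the Control mean was -1.14, -0.48 and -0.79 on the log2 CPM scale in TBZ replicates 1 to 3, against -0.25, -0.44 and 0.57 in Control replicates 1 to 3. The list of 15 summed to 63.3, 93.4 and 65.7 FPKM in TBZ, against 97.0, 83.3 and 130.7 FPKM in Control, most of it from Barx1 (means of 59.1 FPKM in TBZ and 73.5 FPKM in Control), which is also on the mesenchyme list; Tff1 was at 0 reads. edgeR called 0 of these 12, DESeq2 1 higher and limma 0, with 1 higher and 6 lower at an unadjusted p under 0.05 (edgeR), while edgeR with no expression filter called 1 higher and 7 lower. Without Control replicate 3 edgeR still called 0 of the 10 p53 target genes, and their median log2 fold change was -0.05. The part of these marker shifts in the differences below was not tested.

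Sequences upstream of the members are shown first, since paired p53 half-sites are what the factor reads. RefSeq promoter windows on GRCm38.p6 (300 bases, from 250 before to 50 after a transcription start) matched 9 of the 10 genes with 12 windows; Trp53inp1 did not match. The exact 10-base p53 half-site, whose pattern reads the same on both strands, was found in 4 of the 12 windows, one each of Cdkn1a, Ccng1, Bax and Mdm2, against 8.36% of all 32851 windows. A full site, taken as 2 half-sites at most 13 bases apart with at most 1 mismatch in all, was found for Cdkn1a, Ccng1 and Bax, against 1.09% of all windows. The stretches are written 5′ to 3′ on the strand of the gene, capitals mark exact half-sites and the partners that complete a full site, and each runs 25 bases beyond the capitals.
Cdkn1a: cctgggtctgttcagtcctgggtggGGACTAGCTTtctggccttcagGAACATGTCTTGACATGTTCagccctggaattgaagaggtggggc
Ccng1: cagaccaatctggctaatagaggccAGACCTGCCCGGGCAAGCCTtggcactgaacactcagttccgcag
Bax: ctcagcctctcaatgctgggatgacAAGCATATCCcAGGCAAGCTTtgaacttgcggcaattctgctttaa
Mdm2: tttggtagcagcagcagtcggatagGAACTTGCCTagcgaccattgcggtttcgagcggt

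The Cdkn1a stretch (chr17:29090881-29090972, plus strand) lay in window 1 of its 2 windows. It held exact half-sites that began at positions -73 and -51 from the transcription start of that window, with a gap of 12 bases. The half-site at -51 was followed with no gap by a partner with 1 mismatch. Window 2 of Cdkn1a (chr17:29093519-29093818), at another start, held no exact half-site. In Ccng1 (chr11:40755437-40755506, minus strand) the pair had no gap, and in Bax (chr7:45467065-45467135, minus strand) it had a gap of 1 base, each with 1 mismatch in the first member of the pair. Mdm2 (chr10:117710910-117710969, minus strand) had a single half-site at -186. The windows of Plk2, Btg2, Bbc3, Sesn2 and Eda2r held no exact half-site, which says only that these letters are not in those 300 bases. Beside these matches, TBZ over Control log2 fold changes stood at -0.02 for Cdkn1a, -0.13 for Ccng1, -0.15 for Bax and 0.03 for Mdm2. For the genes with a window but no exact half-site they were 0.19 for Plk2, 0.03 for Btg2, -0.03 for Bbc3, -0.05 for Sesn2 and -0.06 for Eda2r. A relation between matches and changes was not tested. A match is a description of the sequence and not evidence of binding in these buds.

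All 10 genes were expressed at moderate to high levels in both groups. By FPKM, which is per kilobase of gene length and so allows genes to be compared, Ccng1 was highest at a mean of 78.0 over the 6 libraries, above every other member in every library. Cdkn1a and Bax followed at 53.4 FPKM each and could not be ordered, then Plk2 at 42.4, Btg2 at 34.5 and Sesn2 at 24.9 FPKM. The libraries of Sesn2, Trp53inp1 (23.4) and Mdm2 (22.3 FPKM) overlapped from one gene to the next. Bbc3 at 13.9 FPKM and Eda2r at 8.06 FPKM came last, each below its neighbour in every library, so that the highest mean was 9.67 times the lowest.

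**Figure D1:**
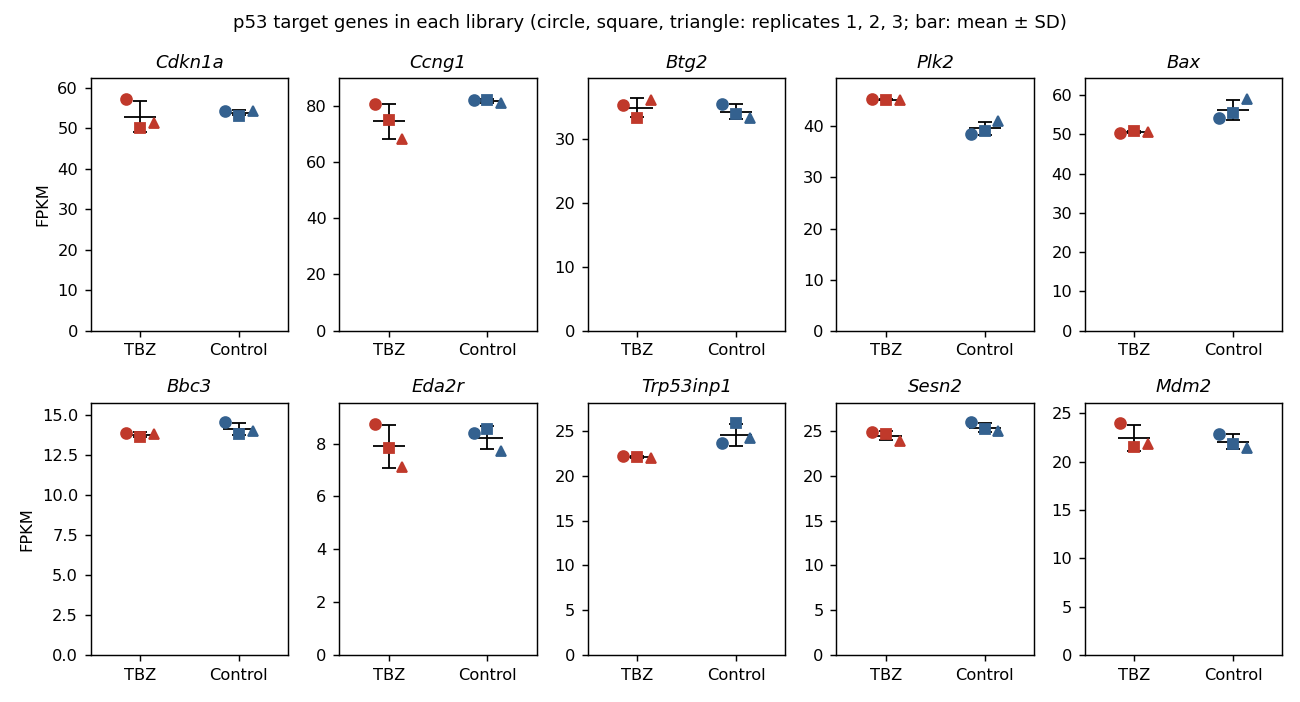
FPKM (vertical axis, from 0) of the 10 p53 target genes in each of 3 TBZ and 3 Control libraries, with mean and SD per group; circles, squares and triangles are replicates 1, 2 and 3. The groups are apart for Plk2 (45.2 to 45.4 FPKM in TBZ, 38.6 to 41.0 in Control), Bax, Trp53inp1, Ccng1 and Sesn2 and overlap for the other genes.

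Among the genes that act on the cell cycle, Cdkn1a encodes p21, the inhibitor of cyclin-dependent kinases through which p53 arrests cells. Cdkn1a (chromosome 17, 29090976 to 29100727, mm10) had 57.3, 50.1 and 51.4 FPKM in TBZ replicates 1 to 3, against 54.2, 53.1 and 54.3 FPKM in Control replicates 1 to 3. TBZ replicate 1 lay above all Control libraries and TBZ replicates 2 and 3 below all of them, so the groups overlapped. Its log2 fold change was -0.02 ± 0.05 (SE; 95% interval -0.15 to 0.10; edgeR adjusted p = 0.922). The interval allows a difference of -9.57% to 6.95%.

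Ccng1 encodes cyclin G1, a p53 target that helps Mdm2 act by recruiting a phosphatase to it. It had 80.5, 74.8 and 68.0 FPKM in TBZ replicates 1 to 3, against 82.1, 81.9 and 80.9 FPKM in Control replicates 1 to 3. Every TBZ library was below every Control library, replicate 1 by a narrow margin, and the TBZ values spread far more than the Control values (coefficients of variation of CPM 8.25% and 0.766%). Counting error alone gives 0.994% in TBZ and 0.868% in Control, so the Control spread was below it. The log2 fold change was -0.13 ± 0.06 (SE; 95% interval -0.26 to -0.0017; edgeR adjusted p = 0.509), and without TBZ replicate 3 it was -0.07.

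Btg2 encodes an antiproliferative protein that brings mRNA-deadenylating enzymes to their targets, and it is also induced by growth factors as an early gene. It had 35.3, 33.2 and 36.1 FPKM in TBZ replicates 1 to 3, against 35.5, 33.9 and 33.2 FPKM in Control replicates 1 to 3. The groups overlapped almost fully, with a log2 fold change of 0.03 ± 0.05 (SE; 95% interval -0.08 to 0.14; edgeR adjusted p = 0.882).

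Plk2 encodes polo-like kinase 2, which acts in centriole duplication and is, like Btg2, also an early serum-induced gene. Plk2 (chromosome 13, 110395046 to 110400844) had 45.4, 45.2 and 45.2 FPKM in TBZ replicates 1 to 3, against 38.6, 39.2 and 41.0 FPKM in Control replicates 1 to 3. All TBZ libraries lay above all Control libraries, a separation that 8.47% of all tested genes had in the same direction. The log2 fold change was 0.19 ± 0.04 (SE; 95% interval 0.10 to 0.28), with an edgeR adjusted p of 0.128 that does not pass and a DESeq2 adjusted p of 0.0157 that does. The authors' deposited table, from the same libraries, gives the same values as DESeq2 at these digits for Plk2 (log2 fold change 0.19, adjusted p 0.0157). The TBZ values varied by 0.187%, less than the 1.12% that counting error alone gives at 7275 to 8294 reads. Leaving out each library in turn kept the log2 fold change between 0.17 and 0.22, with edgeR adjusted p-values from 0.0735 to 0.469.

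Among the genes of cell death, Bax encodes the protein that opens the outer mitochondrial membrane. Bax (chromosome 7, 45461697 to 45466898) had 50.4, 50.8 and 50.6 FPKM in TBZ replicates 1 to 3, against 54.1, 55.5 and 59.0 FPKM in Control replicates 1 to 3. Every TBZ library was lower than every Control library, as for 7.03% of all tested genes. The log2 fold change was -0.15 ± 0.05 (SE; 95% interval -0.25 to -0.05; edgeR adjusted p = 0.306), and neither edgeR nor DESeq2 (adjusted p = 0.282) called it. Leaving out each library in turn gave -0.18 to -0.11, the smallest difference without Control replicate 3. As with Plk2, the TBZ values varied less (0.470%) than counting error gives (1.79%).

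Bbc3 encodes PUMA, a BH3-only protein that frees or activates Bax. It had 13.9, 13.6 and 13.8 FPKM in TBZ replicates 1 to 3, against 14.5, 13.8 and 13.997 FPKM in Control replicates 1 to 3, with a log2 fold change of -0.03 ± 0.05 (SE; 95% interval -0.15 to 0.08; edgeR adjusted p = 0.862). Eda2r encodes a receptor of the TNF receptor family for the ligand ectodysplasin A2. It had 8.75, 7.83 and 7.13 FPKM in TBZ replicates 1 to 3, against 8.38, 8.56 and 7.74 FPKM in Control replicates 1 to 3, and a log2 fold change of -0.06 ± 0.07 (SE; 95% interval -0.22 to 0.11; edgeR adjusted p = 0.852). Both genes overlapped between groups, and Eda2r had the widest spread of all members, with a coefficient of variation of 10.2% in TBZ and 5.22% in Control. The TBZ values of Bbc3 varied by 1.00%, less than the 2.97% that counting error alone gives.

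Among the stress genes, Trp53inp1 encodes a nuclear protein that promotes p53 phosphorylation and autophagy and is induced in the inflamed mouse pancreas. Trp53inp1 (chromosome 4, 11156431 to 11174379) had 22.24, 22.18 and 21.995 FPKM in TBZ replicates 1 to 3, against 23.7, 25.9 and 24.2 FPKM in Control replicates 1 to 3. The groups were apart, with a log2 fold change of -0.15 ± 0.05 (SE; 95% interval -0.25 to -0.05; edgeR adjusted p = 0.307; DESeq2 adjusted p = 0.210). Leaving out each library in turn gave -0.18 to -0.11, the smallest difference without Control replicate 2. The TBZ values of Trp53inp1 varied by 0.441%, less than the 1.34% that counting error alone gives. Sesn2 encodes sestrin 2, which restrains mTORC1 when leucine is low and is also a target of ATF4 and NRF2. It had 24.8, 24.6 and 23.9 FPKM in TBZ replicates 1 to 3, against 26.0, 25.2 and 24.99 FPKM in Control replicates 1 to 3. The TBZ libraries were lower by a narrow margin, with a log2 fold change of -0.05 ± 0.04 (SE; 95% interval -0.14 to 0.04; edgeR adjusted p = 0.719).

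The feedback gene Mdm2 (chromosome 10, 117688875 to 117710758) had 24.0, 21.5 and 21.8 FPKM in TBZ replicates 1 to 3, against 22.9, 21.9 and 21.4 FPKM in Control replicates 1 to 3. The groups overlapped, with TBZ replicate 1 above all other libraries, and the log2 fold change was 0.03 ± 0.05 (SE; 95% interval -0.09 to 0.14; edgeR adjusted p = 0.911). The signs of the changes of Cdkn1a, Mdm2 and Eda2r turned when one TBZ library was left out: 0.02 for Cdkn1a without TBZ replicate 2, -0.03 for Mdm2 without TBZ replicate 1 and 0.01 for Eda2r without TBZ replicate 3.

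**Figure D2:**
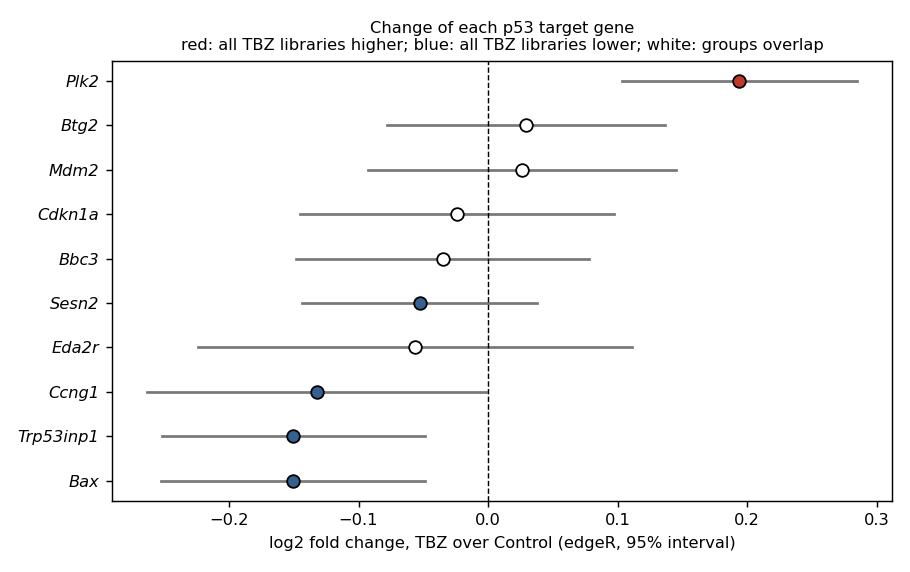
The log2 fold change of TBZ over Control (horizontal axis, edgeR, with 95% interval) for each p53 target gene, one gene per line. Plk2 at 0.19 and Bax, Trp53inp1 and Ccng1 at -0.15 to -0.13 have intervals that do not reach 0; the other 6 intervals span 0.

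The members did not all move in one direction. Of the 10, 3 were above and 7 below 0 in log2 fold change, and their median was -0.04, where 9134 tested genes were above and 9092 below 0 and the median was 0.00031. The groups did not overlap for 5 of the 10 members, 1 higher and 4 lower in TBZ. Of all tested genes 15.5% did not overlap, 8.47% higher and 7.03% lower, and the difference between these shares was not tested. The median deviation of the 10 genes from the Control mean was 0.01, -0.06 and -0.07 on the log2 CPM scale in TBZ replicates 1 to 3, and 0.02, -0.01 and -0.02 in Control replicates 1 to 3. In TBZ replicate 1, Cdkn1a, Mdm2 and Eda2r were above every Control library, while Bax and Trp53inp1 were below every Control library in all TBZ replicates.

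**Figure D3:**
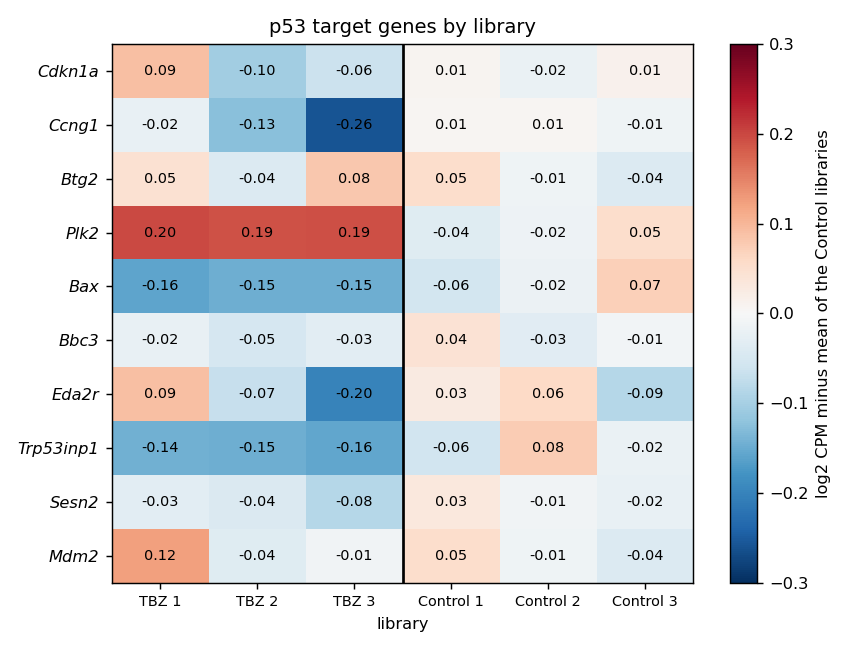
Difference of log2 CPM from the mean of the Control libraries, for each p53 target gene (rows) in each TBZ and Control library (columns), red above and blue below. Plk2 is at 0.19 to 0.20 in all TBZ libraries, Bax at -0.16 to -0.15, and Cdkn1a changes sign between TBZ replicate 1 (0.09) and TBZ replicates 2 and 3 (-0.10 and -0.06).

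The genes most like a member across the 6 libraries were named among 8247 other protein-coding genes with a mean of at least 5 FPKM. For Cdkn1a they were Akt1, Ptk2 and Kctd11, with Pearson r of 0.980, 0.977 and 0.973 in log2 CPM. For Plk2 they were Suclg1, St3gal4 and 1110004F10Rik, with r of 0.991, 0.990 and 0.987. Within the members, r with Cdkn1a was 0.773 for Mdm2, 0.647 for Eda2r and 0.625 for Ccng1, and -0.17 for Plk2. These are descriptions over 6 libraries that differ in depth and in treatment. The r values mix the difference between groups with the spread within groups, and no relation is read from r.

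No gene on the list of p53 and its regulators passed the edgeR threshold. Trp53, which encodes p53 itself, had 40.0, 43.3 and 36.7 FPKM in TBZ replicates 1 to 3, against 38.0, 40.0 and 45.1 FPKM in Control replicates 1 to 3 (log2 -0.03 ± 0.08 SE; edgeR adjusted p = 0.921). Since p53 is controlled mainly through its stability, this transcript level says little about the protein. Mdm4, the partner of Mdm2 that masks p53, had 7.63, 7.69 and 8.84 FPKM in TBZ, against 7.59, 7.87 and 7.71 FPKM in Control (log2 0.06 ± 0.06 SE; edgeR adjusted p = 0.787). Of the 22 genes listed as p53 and its regulators, 16 were above and 6 below 0 with a median of 0.04 and a range of -0.53 to 0.21, and none passed with edgeR, DESeq2 or limma, nor at an unadjusted p under 0.05 with edgeR. The smallest p-values belonged to Ppp1r13b (log2 0.10), whose product ASPP1 steers p53 towards apoptosis genes, to the phosphatase gene Ppm1d (-0.10), itself a p53 target, and to Trp53bp1 (0.07), a DNA break sensor.

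A wider set of p53 targets outside the members held 43 genes. Of these, 14 were above and 29 below 0, with a median of -0.04. edgeR called 0 of 43, DESeq2 1 and limma 0, while 5 were higher and 5 lower at an unadjusted p under 0.05 (edgeR). That is 23.3% of the 43, where 9.61% of all tested genes passed. The groups did not overlap for 5 higher and 7 lower genes (27.9%), where 15.5% of all tested genes did not overlap. The difference between these shares was not tested. Dram1, a lysosomal membrane protein gene of p53-driven autophagy, had 3.94, 4.16 and 3.88 FPKM in TBZ, against 2.73, 3.07 and 3.29 FPKM in Control. The groups were apart, and its log2 fold change of 0.40 ± 0.09 (SE) had an edgeR adjusted p of 0.184 and a DESeq2 adjusted p of 0.0456.

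In the arrest, repair and metabolism list, 8 of 25 genes were above and 17 below 0 (median -0.03). Sesn1, the sestrin paralog of Sesn2, had 17.7, 18.2 and 19.0 FPKM in TBZ, against 16.5, 16.2 and 15.8 FPKM in Control (log2 0.18 ± 0.04 SE; edgeR adjusted p = 0.209). All TBZ libraries were higher for Sesn1 and lower for Sesn2, and the difference between these 2 genes was not tested. Gls2, a mitochondrial glutaminase gene, was at log2 0.25 and Abhd4, a phospholipase-like gene, at -0.12, while Rps27l, a ribosomal protein paralog and the most abundant gene of the list at a mean of 159 FPKM, was at -0.0032.

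In the death and secreted factor list, 6 of 18 genes were above and 12 below 0 (median -0.05). Pidd1, which scaffolds caspase activation, had 6.18, 5.83 and 5.80 FPKM in TBZ, against 6.55, 6.56 and 7.81 FPKM in Control (log2 -0.23; edgeR adjusted p = 0.373), and the nuclease gene Aen was at -0.12 (edgeR adjusted p = 0.403). Both were lower in every TBZ library. Without Control replicate 3, the highest library for Pidd1, the log2 fold change of Pidd1 was -0.14. Thbs1, a matrix protein gene and the most abundant of the list, had 87.7, 61.1 and 65.3 FPKM in TBZ, against 69.0, 72.2 and 52.0 FPKM in Control, with TBZ replicate 1 the highest library, as it was for Cdkn1a, Mdm2 and Eda2r. Without TBZ replicate 1 its log2 fold change of 0.15 became -0.03.

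The partners of Bax and Bbc3 were described by 19 BCL2 family and caspase genes, of which 10 were above and 9 below 0 (median 0.0074). edgeR called 0 of them, DESeq2 1 and limma 0, with 1 higher and 2 lower at an unadjusted p under 0.05 (edgeR). Hrk, a BH3-only gene known mainly from neurons, had 0.531, 0.423 and 0.452 FPKM in TBZ, against 0.739, 0.776 and 0.962 FPKM in Control, a low level in all libraries. It had a log2 fold change of -0.81 ± 0.16 (SE), an edgeR adjusted p of 0.119 and a DESeq2 adjusted p of 0.00454. Beside it, 8 of 8 neuron and glia markers had a log2 fold change below 0, with a median of -0.18 and 3 at an unadjusted p under 0.05 (edgeR), none of them past edgeR, DESeq2 or limma adjustment and 2 lower with no expression filter in edgeR. The list summed to 31.8, 30.9 and 29.0 FPKM in TBZ replicates 1 to 3, against 31.2, 28.5 and 43.5 FPKM in Control replicates 1 to 3, so that Control replicate 3 alone was high, as it was the highest for Hrk. Without Control replicate 3 the log2 fold change of Hrk was -0.69 (edgeR adjusted p = 0.181); the part of these markers in the Hrk difference was not tested. Bcl2l11, which encodes the BH3-only protein BIM, was at -0.15 and Bok, a Bax relative, at 0.19, neither past the threshold (edgeR adjusted p = 0.256 and 0.432). Mcl1, the prosurvival member with the highest FPKM in the list, was at 0.06.

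Genes that p21 represses when it arrests cells were close to equal. Of 16 cell cycle genes 9 were above and 7 below 0, with a median of 0.0025 and a range of -0.09 to 0.07, and edgeR, DESeq2 and limma called 0, with 0 at an unadjusted p under 0.05 (edgeR). Cdc20, the mitotic activator with the highest FPKM among them, had 57.8, 63.6 and 62.7 FPKM in TBZ, against 58.2, 56.9 and 63.1 FPKM in Control. Ccne1, Ccnb2 and E2f1 had the smallest p-values, with log2 fold changes of -0.09, 0.07 and -0.05. Among 14 CDK inhibitors and CDK partners 4 were above and 10 below 0 (median -0.05), and none passed with edgeR, DESeq2 or limma, while 1 was lower at an unadjusted p under 0.05 (edgeR). Cdkn1c, which encodes p57, a relative of p21 that acts in pancreatic development, was at a mean of 308 FPKM and a log2 fold change of -0.07 ± 0.07 (SE; edgeR adjusted p = 0.781), against 53.4 FPKM for Cdkn1a. The INK4 inhibitor genes Cdkn2d and Cdkn2b were at -0.23 and -0.30 and Cdk6 at 0.11, with edgeR adjusted p-values of 0.364, 0.590 and 0.558.

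Other stress programmes that share targets with p53 were placed beside it. Of 16 integrated stress response genes 7 were above and 9 below 0 (median -0.01). edgeR called 0, DESeq2 1 and limma 0, with 3 higher and 3 lower at an unadjusted p under 0.05 (edgeR). Nupr1, a chromatin protein gene induced in acute pancreatitis in rodents, had 84.7, 74.1 and 82.2 FPKM in TBZ, against 65.2, 68.8 and 62.1 FPKM in Control (log2 0.30 ± 0.06 SE; edgeR adjusted p = 0.124; DESeq2 adjusted p = 0.00155). Cebpg (-0.18), the cystine transporter gene Slc7a11 (-0.26) and the serine synthesis gene Phgdh (0.11) did not pass with edgeR.

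In the NRF2 list, whose targets defend against oxidants, 12 of 12 genes were below 0 with a median of -0.18. edgeR called 3 lower, DESeq2 3 lower, and limma on log2(FPKM + 0.5) with the mean FPKM filter 2. At an unadjusted p under 0.05 (edgeR) 10 of the 12 were lower, where 4.54% of all tested genes were. Every TBZ library was below every Control library for 8 of the 12, where 7.03% of all tested genes had this separation. The difference between these shares was not tested. Nqo1, a quinone reductase gene, had 7.24, 6.65 and 5.24 FPKM in TBZ, against 13.3, 12.4 and 14.4 FPKM in Control (log2 -1.06 ± 0.12 SE; edgeR adjusted p = 0.0160), a call that ended with limma on log2(FPKM + 0.1) (adjusted p = 0.0519) and with limma and no filter (0.160). The others past the edgeR threshold were the sulfiredoxin gene Srxn1 (log2 -0.77, edgeR adjusted p = 0.00333) and the glutathione synthesis gene Gclc (log2 -0.42, edgeR adjusted p = 0.0292). The thioredoxin gene Txn1, the most abundant, was at -0.08 (edgeR adjusted p = 0.537). The call for Gclc ended without TBZ replicate 1, 2 or 3 or Control replicate 2 (edgeR adjusted p = 0.112, 0.0888, 0.176 and 0.0741) and with limma (adjusted p from 0.0754 to 0.178), and that for Srxn1 with limma and no filter (0.0762). Sesn2, which NRF2 also regulates, was at -0.05.

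Of 15 immediate-early genes 12 were above and 3 below 0 (median 0.10), and 1 rose past the edgeR threshold. Egr1, a growth factor-induced transcription factor gene, had 26.8, 24.3 and 28.0 FPKM in TBZ, against 19.1, 20.2 and 18.4 FPKM in Control (log2 0.45 ± 0.06 SE; edgeR adjusted p = 0.0292). The call for Egr1 ended without TBZ replicate 1 or 3 or Control replicate 1 or 2 (edgeR adjusted p = 0.135, 0.173, 0.0555 and 0.0739) and with limma (adjusted p from 0.0948 to 0.207). Ier2 (0.16) and Jun (0.15) were higher in every TBZ library but stayed short of the threshold (edgeR adjusted p = 0.257 and 0.269). Plk2 at 0.19 and Btg2 at 0.03, both early genes as well as p53 targets, stood on either side of the list's median.

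**Figure D4:**
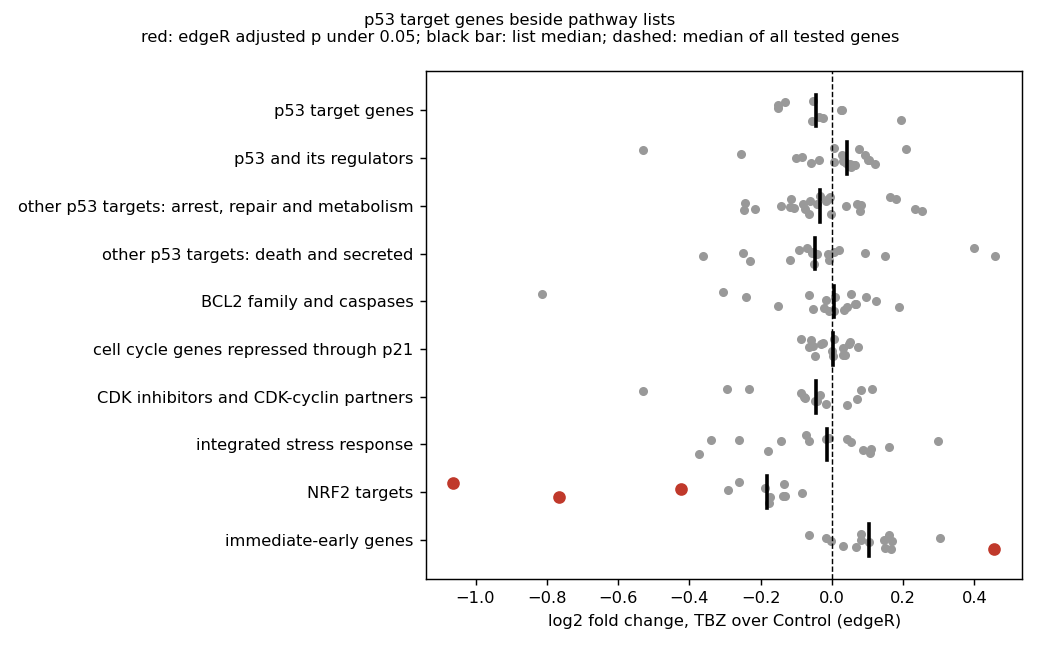
The log2 fold change of TBZ over Control (horizontal axis, edgeR) for each tested gene of the p53 target genes and 9 further lists, with list medians as bars. The p53 target genes lie between -0.15 and 0.19 around a median of -0.04, and the 4 genes past the threshold are 3 NRF2 targets and 1 immediate-early gene.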

How the data were processed

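Poly-A RNA of 3 TBZ and 3 Control samples was sequenced in read pairs, per the labels' protocols, and STAR, HTSeq and mm10 are named in the submitters' processing notes without versions. Per the file headers the deposited table holds raw read counts and FPKM per library. The mean scaled signal per group, the log2 fold changes, the p-values and the adjusted p-values in it were made by the authors with a tool not given in the sources used here; the signal was not used. Strand setting was not given. Cdkn1a, Bax and Sesn2 each overlap another annotated gene (GENCODE M21), which had at most 37 reads in a library.

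Counts were tested with edgeR 4.0.16 (R 4.3.3; quasi-likelihood, TMM, filterByExpr, Benjamini-Hochberg over 18226 genes); 10 pathway lists and 9 marker lists were described by counts and medians. The SE of a fold change was derived from it and the F statistic. Intervals are at 95% and cover the spread between these libraries. Alternatives were DESeq2 1.42.0, other scalings and filters, a replicate block, limma 3.58.1 on log2(FPKM + 0.5) or (FPKM + 0.1) with a mean FPKM of at least 0.5 or no filter, and leaving out each library. Scripts were tested on simulated data. The members, lists, tests and alternatives were chosen with earlier results of these data known. From each list the text names every called gene, the 3 with the smallest p and the one with the highest FPKM, with Trp53 and Mdm4 always named. Each of the results for endothelium (7 of 8 above 0), macrophages (3 of 8), erythroid cells (2 of 8), mesenchyme (6 of 12), general epithelium (11 of 15) and endocrine cells (11 of 12) had 0 genes called by edgeR, with 0, 0, 2, 1, 5 and 2 at an unadjusted p under 0.05 and 0, 0, 0, 0, 1 and 1 called by DESeq2; with no expression filter edgeR called 0, 0, 0, 2, 3 and 2.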

Additional observations from a re-analysis of the deposited data

How the results depend on the processing

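Of the 10 p53 target genes 0 passed in the edgeR fit and in 13 of 15 alternatives; Plk2 passed, making 1, with DESeq2 and with no expression filter. The range over fits without one library was 0 to 0 genes called and -0.08 to -0.02 for the median log2 fold change. The count of all changed genes, 34, was 222 with DESeq2, 445 with no expression filter, 14 and 13 with limma on log2(FPKM + 0.5) and (FPKM + 0.1), and 0 with limma and no filter (2135 at an unadjusted p under 0.05). With the replicate block it was 5, and no member passed (Plk2 edgeR adjusted p = 0.328). Deviations of same-numbered libraries from their group means correlated at -0.0079, -0.18 and -0.08 for numbers 1 to 3. For unlike numbers the range was -0.11 to 0.17. With 3 libraries a group, whose deviations sum to 0, these correlations cannot show whether the shared numbers pair the samples. Without one library the count of all changed genes ran from 5 to 36. It was 11 without TBZ replicate 1, 5 without TBZ replicate 3 and 13 without Control replicate 2, and the cause was not tested. Gclc and Egr1 lost their calls with the block (edgeR adjusted p = 0.117 and 0.155), with limma and in 4 of the 6 fits without one library each. Nqo1 lost its call with the block (edgeR adjusted p = 0.114) and in 2 of the 3 limma fits, and Srxn1 with limma and no filter. Dram1, Hrk and Nupr1, not called in the edgeR fit, passed with DESeq2 and with no expression filter. Directions turned when a library was left out for Cdkn1a (-0.087 to 0.016), Mdm2 (-0.027 to 0.058), Eda2r (-0.137 to 0.0096), Trp53 (-0.095 to 0.041), Mdm4 (-0.013 to 0.097), Rps27l (-0.035 to 0.025), Thbs1 (-0.027 to 0.251) and Cdkn1c (-0.149 to 0.0025). For the 6 members whose interval spans 0, differences of either sign inside that interval remain compatible with these libraries. The intervals are not adjusted for the number of genes tested and are not detection limits.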
